A study of Homo sapiens with 10 samples.

Results

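The genes of 4 enzyme families that handle drugs and steroids were described in HepG2 and SK-Hep1 cells, both labelled as hepatocellular carcinoma lines, carrying a microRNA decoy or its control. The families are the cytochromes P450 (CYP), the UDP-glucuronosyltransferases (UGT1A, UGT2A and UGT2B), the cytosolic sulfotransferases (SULT) and the glutathione S-transferases (GST). Members were chosen by symbol, without pseudogenes and without CYP51A1, and came to 103 of the 19215 genes counted: 54 CYP, 19 UGT, 13 SULT and 17 GST. The choice was made with earlier results of these data known. Poly(A) RNA was sequenced as 50 bp pairs with a kit that does not keep the strand. The groups were HepG2 with miR-17 TuD (3 libraries), HepG2 with NC TuD (3), SK-Hep1 with miR-17 TuD (2) and SK-Hep1 with NC TuD (2). A TuD, or tough decoy, is an RNA that binds a microRNA and blocks it, and NC is its negative control. Every group had been infected with lentivirus in polybrene, selected in puromycin and grown in EMEM with serum, and resistant colonies were pooled, so each arm is 1 stable cell line. An effect of the decoy and the separate history of each stable line cannot be told apart. The labels do not say that libraries came from separate cultures, so p-values measure only the spread between these libraries. The decoy and mature miR-17 were not measured here.

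P450 enzymes oxidise drugs, steroids, bile acids, fatty acids and vitamin D, using electrons passed on by partner reductases. UGT enzymes attach glucuronic acid, SULT enzymes attach sulfate and GST enzymes attach glutathione, which makes their substrates more soluble. The liver is the main site of these reactions, and receptors such as PXR (gene NR1I2), CAR (NR1I3), AHR and the vitamin D receptor (VDR) switch many of the genes on. MicroRNAs of the miR-17 family lower target mRNAs by pairing of their seed, bases 2 to 8, with sites in the 3′ untranslated region.

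The seed that the decoy is directed at is shared by 8 human mature microRNAs in RefSeq (GRCh38.p14). A selection is printed 5′ to 3′ with the seed in capitals, because it fixes the letters searched for in the enzyme genes.
miR-17-5p: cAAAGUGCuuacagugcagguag
miR-20a-5p: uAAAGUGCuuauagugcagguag
miR-93-5p: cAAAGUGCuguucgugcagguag
miR-106b-5p: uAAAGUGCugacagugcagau
The first of these lies at chr13:91350618-91350640 on the plus strand.

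The complement of the seed, GCACTTT (7mer-m8), or the same followed by A, GCACTTTA (8mer), was sought on the sense strand of the longest 3′ untranslated region of each gene (GENCODE 29, GRCh38). Of 100 members searched, 9 held such a site, which is 9.0%. Of the 50 searched members that were abundant enough to test, 8 did (16.0%), against 25.0% of all 12732 tested genes searched. The members' untranslated regions were also shorter, with a median of 733 bases over members and 1343 bases over all tested genes. Of the 12 sites found, 6 lay in a stretch common to Alu repeats. The sites below show an 8mer in CYP2U1 and in CYP4F3, with the match in capitals.
CYP2U1: gccttaagctgtgGCACTTTAaa
CYP4F3: gatttcttttctgGCACTTTAat
They lie at chr4:107953245-107953267 and chr19:15660233-15660255, both on the plus strand (GRCh38). A match is a description of the letters, not evidence of binding.

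Libraries held 12884225 to 15076431 gene counts, so that 1 count was 0.0657 to 0.0795 CPM, where CPM is the count scaled to a common library size. Libraries of 1 group were not duplicates of each other: chi-square per degree of freedom was 1.40 to 3.70. Hepatocyte markers (12 genes, among them ALB and AFP) summed to 76.7 to 82.6 CPM in SK-Hep1 miR-17 TuD and 84.9 to 106 CPM in SK-Hep1 NC TuD, against 48995 to 51495 CPM in HepG2 miR-17 TuD and 56438 to 58638 CPM in HepG2 NC TuD. Endothelial markers (11 genes) summed to 65.7 to 76.2 CPM in SK-Hep1 miR-17 TuD and 65.8 to 71.6 CPM in SK-Hep1 NC TuD, mostly from ENG. Of the 6 endothelial markers tested between the control arms, 1 was higher and 5 were lower in SK-Hep1 NC TuD than in HepG2 NC TuD. Their median log2 difference was -4.49. Over all genes tested in this contrast, 43.9% were called higher and 42.8% lower. KDR and ERG were at 0 in all 10 libraries. In HepG2 the endothelial sum was 34.7 to 39.1 CPM with the decoy and 26.4 to 30.5 CPM with the control.

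Of the 103 members, 51 passed the filter on low counts and were tested. Of the rest, 23 had no count in any library, among them CYP2C19, CYP4A11 and CYP11B2, and 29 had at most 12 counts in a library. A mean of at least 10 CPM was reached by 7 members in each arm of SK-Hep1, against 25 in HepG2 miR-17 TuD and 22 in HepG2 NC TuD. Several drug-metabolising P450 enzymes of adult liver were near the floor in HepG2. CYP3A4, which oxidises a large share of medicines, had 4, 3 and 1 counts in HepG2 miR-17 TuD and 3, 3 and 9 in HepG2 NC TuD. CYP3A7, its fetal relative, had 8, 4 and 5 against 4, 6 and 7 counts. CYP7A1, the rate-limiting enzyme of bile acid synthesis, had 3, 2 and 4 against 1, 4 and 2 counts, and UGT1A6, a phenol glucuronosyltransferase, had 0, 2 and 1 against 2, 2 and 1. Sequence shared between relatives limits some of these values: of the members, 14 had at least 50% of their 50-base stretches in another gene. For SULT1A3 and SULT1A4, both at 0, this was 98.6% and 99.0%. For CYP2C19, CYP3A7 and UGT1A6 it was 83.2%, 75.3% and 59.1%, so their low counts carry this limit too.

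**Figure D1:**
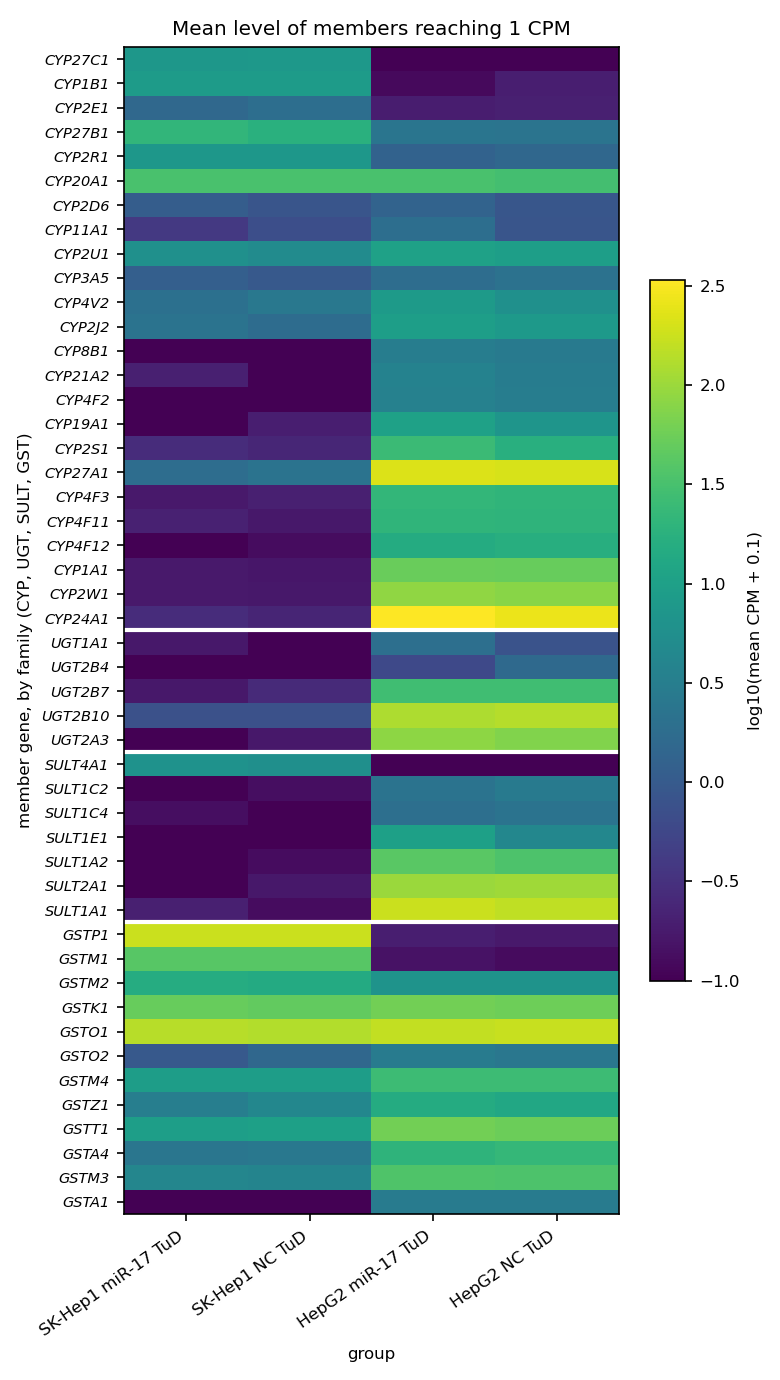
Mean level of the 48 members that reach 1 CPM in at least 1 group, as log10 of the mean CPM plus 0.1, by group (SK-Hep1 n = 2 libraries per arm, HepG2 n = 3). Colours change sharply between the cell lines and little between the arms of a line: GSTP1, GSTM1, CYP1B1, CYP27C1 and SULT4A1 are brighter in SK-Hep1, and most UGT and SULT genes are brighter in HepG2.

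Levels of different genes were set side by side per kilobase, over the union of all exons of a gene in GENCODE on GRCh38, although reads were counted on hg19. This length exceeds that of a single transcript, as for SULT1A1 at 8.909 kb, so an order of genes depends on it. In HepG2 miR-17 TuD cells, abundant members were GSTO1 at 94.2 CPM per kb, CYP24A1 at 84.9, CYP27A1 at 74.3, UGT2B10 at 65.2 and SULT2A1 at 50.4. In HepG2 NC TuD cells they stood at 100.3 CPM per kb for GSTO1, 66.2 for CYP24A1, 68.7 for CYP27A1, 69.7 for UGT2B10 and 53.2 for SULT2A1. In SK-Hep1 miR-17 TuD cells GSTP1 stood at 91.9 CPM per kb, GSTO1 at 82.8 and GSTM1 at 16.0, and in SK-Hep1 NC TuD cells they had 93.1, 78.4 and 16.2 CPM per kb. GSTT1 and GSTT2 were not in the annotation used and have no length here.

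HepG2 cells with the decoy had higher mRNA of 11 members and lower mRNA of 1, and most members did not pass the test. The highest fold among the 11, for UGT1A1, was 2.61. The higher genes were 6 CYP (CYP11A1, CYP19A1, CYP24A1, CYP2S1, CYP3A43, CYP4V2), 3 SULT (SULT1A1, SULT1A2, SULT1E1) and 2 UGT (UGT1A1, UGT2A3), and the lower was UGT2B4. No GST passed the test among 13. Genes were called at an adjusted p below 0.05 by edgeR's quasi-likelihood test, adjusted by Benjamini-Hochberg over 13349 genes. The 12 called members are 23.5% of 51, against 19.3% of all genes tested, and the 11 higher stand against 10.7% of all genes called higher, the 1 lower against 8.58%. The median log2 fold change of the tested members was 0.11, and of all tested genes 0. With limma on the whole deposited log2 matrix 3 of the 12 were called, CYP11A1, SULT1E1 and UGT2B4.

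**Figure D2:**
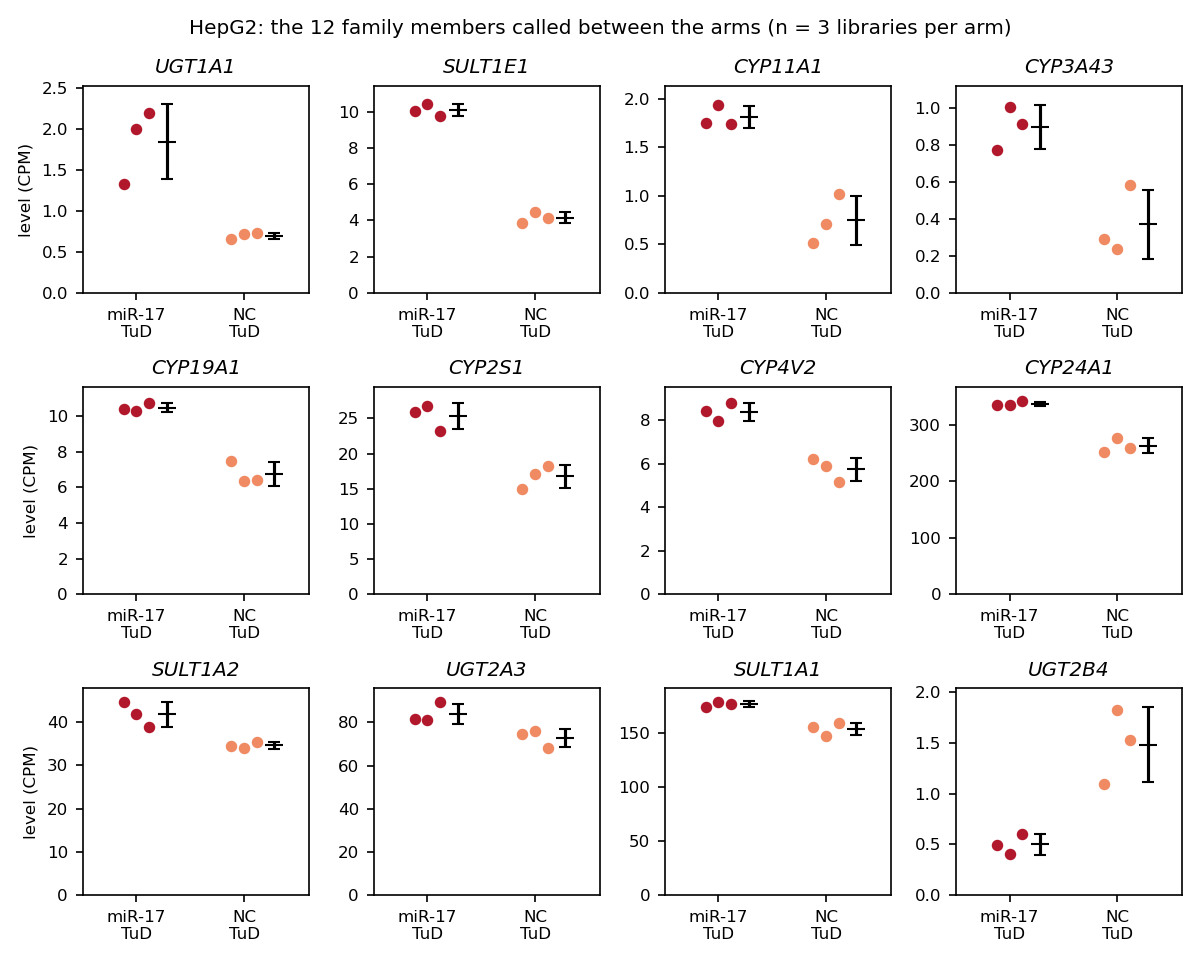
Level in CPM, from 0, of the 12 members called in HepG2: each point is a library (miR-17 TuD left, NC TuD right, n = 3 each), and the bar to the right of the points is the mean ± SD. The arms do not overlap in any panel, and UGT2B4 alone is lower with the decoy. Panels were picked by their call between the arms, so this separation adds nothing to the call. The arms of uncalled members such as CYP20A1, CYP2J2 and GSTT1 did not overlap either, and the share over all genes was not computed.

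Among the enzymes of vitamin D and bile acid metabolism, CYP24A1, which inactivates vitamin D hormone, had 4779, 5022 and 4505 counts in HepG2 miR-17 TuD and 3456, 3487 and 3558 in HepG2 NC TuD. It averaged 337 ± 3.7 CPM with the decoy and 263 ± 13 CPM with the control (SD, n = 3 each), a log2 fold change of 0.36 ± 0.04 (SE; edgeR adjusted p = 1.2e-10). All 3 decoy libraries lay above all 3 control libraries, as they also did for uncalled members such as CYP20A1 and CYP2J2. CYP27A1, a mitochondrial enzyme that hydroxylates cholesterol and vitamin D, averaged 222 ± 3.4 CPM against 205 ± 11 CPM and did not pass (log2 fold change 0.11 ± 0.04, edgeR adjusted p = 0.064), though it was called under some alternatives, such as without replicate 3 of either arm. The gene of the receptor that induces CYP24A1, VDR, had 31, 34 and 46 counts with the decoy and 15, 16 and 11 with the control, a log2 fold change of 1.31 ± 0.26 (edgeR adjusted p = 0.00012).

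Steroid synthesis genes of the P450 family were expressed at low levels. CYP19A1, aromatase, which makes oestrogens from androgens, had 149, 154 and 142 counts in HepG2 miR-17 TuD and 103, 80 and 88 in HepG2 NC TuD (log2 fold change 0.63 ± 0.12, edgeR adjusted p = 1e-04). CYP11A1, which cuts the side chain of cholesterol to make pregnenolone, had 25, 29 and 23 counts against 7, 9 and 14, a log2 fold change of 1.27 ± 0.32 (edgeR adjusted p = 0.0023). The arms of neither gene overlapped, which adds nothing to their calls between the same arms. CYP11A1 shares 29% of its exon bases with an overlapping gene. With DESeq2 CYP11A1 no longer passed (adjusted p = 0.053).

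Of the P450 enzymes for foreign compounds and fatty acids, CYP2S1, an extrahepatic enzyme that AHR can induce, had 371, 401 and 307 counts with the decoy and 206, 215 and 251 with the control. It averaged 25.4 ± 1.8 CPM against 16.8 ± 1.6 CPM (log2 fold change 0.60 ± 0.09, edgeR adjusted p = 4.2e-07). CYP4V2, a fatty acid hydroxylase, had 120, 119 and 116 counts against 85, 74 and 71 (log2 fold change 0.54 ± 0.14, edgeR adjusted p = 0.0024). CYP3A43 had only 11, 15 and 12 counts against 4, 3 and 8, and its call (log2 fold change 1.24 ± 0.46, edgeR adjusted p = 0.047) was lost under 13 of 17 alternatives, among them each left-out library other than NC TuD replicate 3. CYP1A1, the classic AHR target, did not pass: it averaged 52.7 ± 4.1 CPM with the decoy and 51.0 ± 1.5 CPM with the control (log2 fold change 0.05 ± 0.06, edgeR adjusted p = 0.65). CYP2W1, found in tumours and fetal gut, averaged 88.1 ± 9.9 CPM against 79.3 ± 6.8 CPM and did not pass (edgeR adjusted p = 0.090). It was called with no filter on low counts (adjusted p = 0.030), without miR-17 TuD replicate 3 (log2 fold change 0.24, adjusted p = 0.0014) and without NC TuD replicate 3 (0.22, adjusted p = 0.016), against 0.15 with all libraries.

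The CYP4F genes, whose enzymes hydroxylate fatty acids and leukotrienes, had log2 fold changes between -0.11 and 0.16, and none was called. CYP4F3 averaged 21.4 ± 1.3 CPM in HepG2 miR-17 TuD and 20.1 ± 0.29 CPM in HepG2 NC TuD. CYP4F11 averaged 20.3 ± 0.94 CPM against 19.7 ± 0.54 CPM, and CYP4F12 14.95 ± 0.16 CPM against 16.1 ± 2.1 CPM. CYP3A5, a relative of CYP3A4, had 23, 27 and 24 counts against 29, 20 and 34, which overlap.

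Among the sulfotransferases, SULT1E1, which inactivates oestrogens (chr4:69841212-69860152, minus strand, GRCh38), had 143, 156 and 129 counts in HepG2 miR-17 TuD and 53, 56 and 57 in HepG2 NC TuD. It averaged 10.1 ± 0.33 CPM against 4.16 ± 0.29 CPM, a log2 fold change of 1.28 ± 0.14 (edgeR adjusted p = 2.2e-10). This call held under all 19 alternatives, and 23.6% of the gene's 50-base stretches also occur in an overlapping gene. SULT1A1, the main phenol sulfotransferase, averaged 177 ± 2.5 CPM against 154 ± 5.7 CPM (log2 fold change 0.20 ± 0.05, edgeR adjusted p = 0.00071). Its neighbour SULT1A2 averaged 41.8 ± 2.8 CPM against 34.7 ± 0.80 CPM (log2 fold change 0.27 ± 0.07, edgeR adjusted p = 0.0028), and that call was lost without miR-17 TuD replicate 1. The pair shares sequence, with 20.6% of the 50-base stretches of SULT1A2 also in SULT1A1. SULT2A1, which sulfates DHEA and bile acids, averaged 100 ± 7.9 CPM against 106 ± 1.3 CPM and did not pass (log2 fold change -0.08 ± 0.05, edgeR adjusted p = 0.31).

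The glucuronosyltransferases moved both ways. UGT1A1, the enzyme for bilirubin, had 19, 30 and 29 counts in HepG2 miR-17 TuD and 9, 9 and 10 in HepG2 NC TuD (log2 fold change 1.38 ± 0.33, edgeR adjusted p = 0.0015; not called by DESeq2). The UGT1A genes share their last exons, and 49.9% of the exon bases of UGT1A1 overlap another gene, so reads there could not be given to it. UGT2B4, a bile acid and steroid glucuronosyltransferase, had 7, 6 and 8 counts against 15, 23 and 21, with a log2 fold change of -1.56 ± 0.37 (edgeR adjusted p = 0.0015). UGT2A3 averaged 84.0 ± 4.7 CPM against 72.9 ± 4.1 CPM (log2 fold change 0.21 ± 0.06, edgeR adjusted p = 0.0058), a call lost without NC TuD replicate 3. UGT2B10 at 126 ± 7.0 CPM against 135 ± 9.1 CPM and UGT2B7, which handles morphine, at 28.2 ± 1.7 CPM against 27.7 ± 1.7 CPM did not pass. Without NC TuD replicate 3, UGT2B10 was called lower (log2 fold change -0.15, edgeR adjusted p = 0.039).

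None of the 13 tested GST genes passed in HepG2, and 3 had an unadjusted p below 0.05. GSTO1 averaged 159 ± 8.4 CPM with the decoy and 170 ± 3.8 CPM with the control (log2 fold change -0.09 ± 0.04). GSTT1 averaged 59.6 ± 2.7 CPM against 53.8 ± 1.4 CPM (log2 fold change 0.15 ± 0.06, edgeR adjusted p = 0.072), and was called without miR-17 TuD replicate 3 and with the stricter filter (adjusted p = 0.026 and 0.038). GSTA1, the alpha-class enzyme of hepatocytes, averaged 2.80 ± 0.40 CPM against 2.82 ± 0.22 CPM, a log2 fold change of -0.02 ± 0.21. Among the mu class, GSTM3 averaged 36.0 ± 0.70 CPM against 34.4 ± 2.4 CPM and GSTM4 26.2 ± 1.0 CPM against 26.4 ± 0.87 CPM. GSTA4, which acts on lipid peroxidation products, averaged 19.7 ± 0.31 CPM against 22.4 ± 2.2 CPM (log2 fold change -0.18 ± 0.09, edgeR adjusted p = 0.15).

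None of the 12 called members held an 8mer or 7mer-m8 site, out of 12 searched, against 16.0% of tested members and 25.0% of all tested genes. VDR and NR1I2 also held none, and HNF4A held a single repeat-type 7mer-m8. CYP19A1 held 1 match of a further class, 7mer-A1, which is the 8mer without its first letter. No share over all genes was computed for that class.

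Summed over members, CYP mRNA came to 875 ± 15.1 CPM in HepG2 miR-17 TuD and 749 ± 7.8 CPM in HepG2 NC TuD (SD, n = 3 each), and SULT mRNA to 333 ± 5.9 CPM against 303 ± 6.6 CPM. The libraries of the arms did not overlap in either sum. CYP24A1 alone holds a large part of the CYP sum, at 337 against 263 CPM. UGT sums of 242 ± 13 CPM against 238 ± 15.1 CPM and GST sums of 389 ± 9.6 CPM against 388 ± 2.9 CPM overlapped. In bulk RNA, fewer cells with a gene and less RNA per cell cannot be told apart.

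**Figure D3:**
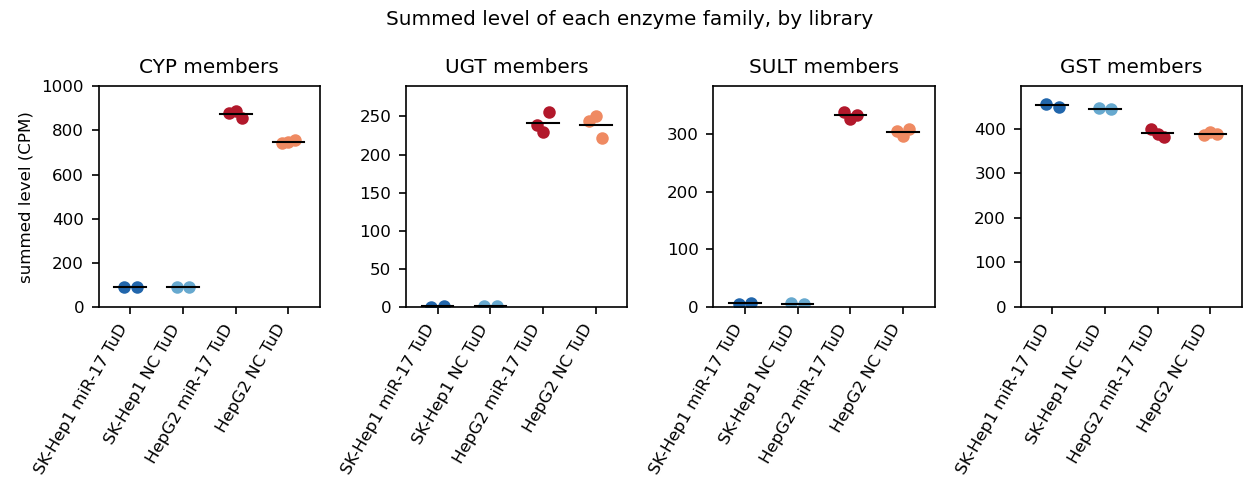
Summed level in CPM of each family per library (points) with the group mean (line), from 0, for SK-Hep1 and HepG2, miR-17 TuD left of NC TuD. GST sums are of similar size in both lines, 443 to 455 CPM in SK-Hep1 and 380 to 399 CPM in HepG2, whereas UGT sums stay at or below 1.4 CPM in SK-Hep1.

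In SK-Hep1 no member was called between the arms, of 51 tested by edgeR, against 0.869% of all genes tested (0.667% higher and 0.202% lower). Not all of the 51 could be called there: SULT1E1, UGT2B4, GSTA1 and CYP4F2, for example, had no count in either arm. Of all 103 members, 22 reached a mean of 1 CPM in each SK-Hep1 arm. At an unadjusted p below 0.05 there was 1 member, CYP27B1, DESeq2 called 0, and limma on the deposited log2 matrix called 1, CYP19A1, which rests on 0 and 0 against 1 and 2 counts. CYP27B1, which makes vitamin D hormone, had 295 and 276 counts in SK-Hep1 miR-17 TuD and 233 and 278 in SK-Hep1 NC TuD (log2 fold change 0.25 ± 0.11, edgeR adjusted p = 0.52). GSTP1, the pi-class enzyme common in tumours, had 2344 and 2517 counts against 2536 and 2708 (log2 fold change -0.02 ± 0.06). GSTM1 had 534 and 578 against 585 and 613 counts (log2 fold change -0.02 ± 0.09), and CYP1B1, an oestrogen hydroxylase, 105 and 134 against 133 and 120 (log2 fold change 0.01 ± 0.16). In CPM the arms overlapped for GSTM1 and CYP1B1. Traces of hepatocyte mRNA differed between the SK-Hep1 arms: ALB had 0 and 4 counts with the decoy against 59 and 113 with the control, and FGA 27 and 21 against 1 and 7. Members abundant in HepG2 and at a few counts in SK-Hep1 sit at this level too, and the part of such traces in their values was not tested.

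Members at 1 CPM or more in all 4 groups numbered 15, of which 7 were CYP and 8 GST genes. Their log2 fold changes ran between -0.42 and 0.33 in SK-Hep1 (SE up to 0.29) and between -0.22 and 0.54 in HepG2 (SE up to 0.28). CYP4V2 was the only one of them called, in HepG2, and had a log2 fold change of -0.35 ± 0.27 in SK-Hep1. The difference between its responses did not pass (edgeR adjusted p = 0.094).

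**Figure D4:**
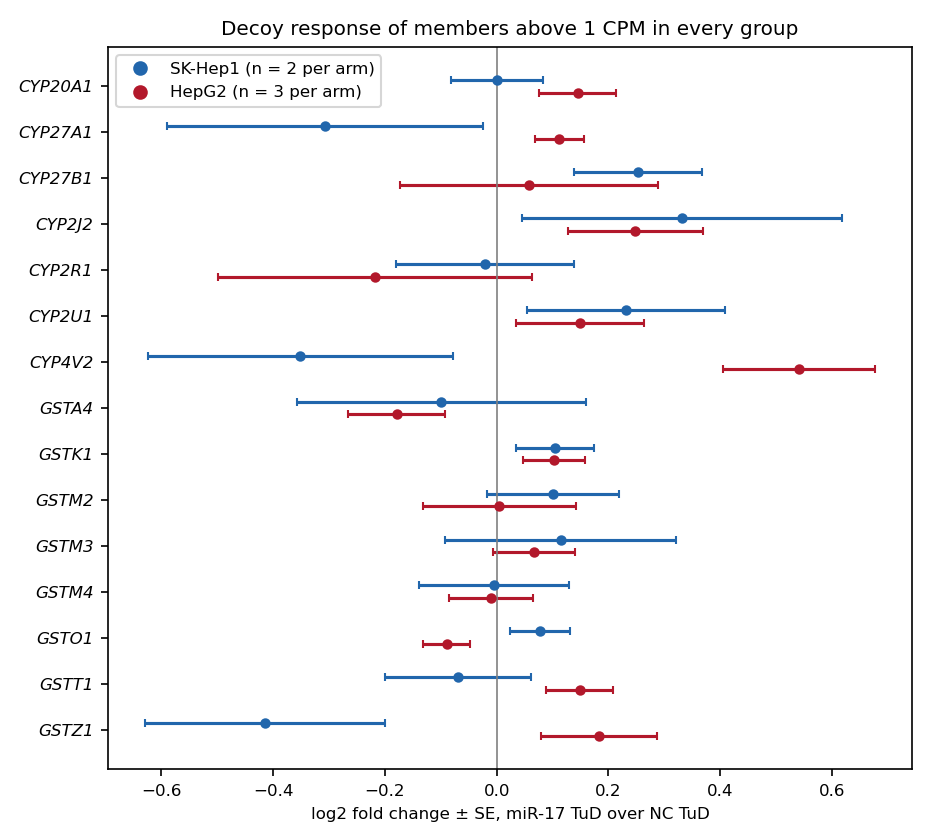
Log2 fold change ± SE of miR-17 TuD over NC TuD for the 15 members at 1 CPM or more in every group, in SK-Hep1 (n = 2 per arm) and HepG2 (n = 3 per arm). CYP4V2 in HepG2, at 0.54, stands farthest from 0, and GSTZ1 in SK-Hep1, at -0.42, is the GST gene farthest from 0.

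The test of the difference between the responses of the lines called 1 member, CYP11A1, against 3.75% of all genes tested. Its counts were 3 and 5 in SK-Hep1 miR-17 TuD and 7 and 11 in SK-Hep1 NC TuD, a log2 fold change of -1.06 ± 0.61 that did not pass, where HepG2 gave 1.27 ± 0.32. The difference was -2.32 ± 0.69 (edgeR adjusted p = 0.042) and was lost under 10 of 15 alternatives, with adjusted p up to 0.30. Leaving out any library other than replicate 3 of either HepG2 arm ended it. Both contrasts rest on few counts. For SULT1E1, UGT2B4 and CYP3A43 all SK-Hep1 libraries were at 0, so no response could be compared.

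The lines themselves differed in most members. Between SK-Hep1 NC TuD and HepG2 NC TuD, 48 of 51 were called, 9 higher and 39 lower in SK-Hep1, against 86.7% of all genes tested (43.9% higher and 42.8% lower). The 3 not called were CYP11A1, CYP20A1 and CYP2D6, the last named after its values were seen. The median log2 difference of the tested members was -5.94, against 0.02 over all tested genes. Most UGT and SULT genes reached the filter on low counts through HepG2, where they are high, so their direction between the lines follows from the filter. The same holds for CYP and GST genes such as CYP4F2, CYP8B1, CYP21A2 and GSTA1, which had no count in SK-Hep1 NC TuD. All of these enter the 39 lower and the median. Neither the split nor the median is therefore a result about the families.

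The 9 members higher in SK-Hep1 included 3 GST genes. Among the 9, GSTP1, GSTM1, CYP1B1, CYP2E1, CYP27C1 and SULT4A1 passed the filter through SK-Hep1. Their direction between the lines therefore follows from the filter as well. GSTP1 (chr11:67583595-67586656, plus strand, GRCh38) had 2536 and 2708 counts in SK-Hep1 NC TuD and 2, 0 and 1 in HepG2 NC TuD, a ratio of 2374 with a counting interval of 812 to 11517 (exact Poisson, 95%). GSTM1 (chr1:109687814-109709039, plus strand) had 585 and 613 counts against 0, 1 and 0. Intervals and floors cover counting error only, and 58.5% of the 50-base stretches of GSTM1 also occur in another gene, mostly GSTM2. GSTM2 itself averaged 14.3 ± 0.18 CPM against 6.37 ± 0.88 CPM (log2 difference 1.16 ± 0.13, edgeR adjusted p = 2e-12).

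CYP27C1, which acts on retinoids, had 105 and 116 counts in SK-Hep1 NC TuD and none in HepG2 NC TuD, at least 100.1-fold higher against a floor of 3 counts over the group. SULT4A1, a brain sulfotransferase, had 90 and 73 counts against none, at least 73.8-fold higher. CYP1B1 had 133 and 120 counts against 2, 0 and 2. CYP2E1, which oxidises ethanol, had 26 and 26 counts against 0, 3 and 1, and 23.9% of its exon bases overlap another gene. The vitamin D hydroxylases CYP27B1 and CYP2R1 averaged 17.3 ± 1.3 and 7.31 ± 0.40 CPM in SK-Hep1 NC TuD, against 2.14 ± 0.14 and 1.40 ± 0.18 CPM in HepG2 NC TuD. Their log2 differences were 3.01 ± 0.16 and 2.38 ± 0.20 (edgeR adjusted p = 3.2e-25 and 3e-16).

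In the other direction, SULT1A1 had 0 and 1 counts in SK-Hep1 NC TuD and 2125, 1856 and 2181 in HepG2 NC TuD. CYP24A1 had 1 and 3 counts against 3456, 3487 and 3558, SULT2A1 2 and 0 against 1454, 1312 and 1467, and UGT2A3 2 and 0 against 1021, 955 and 936. CYP1A1 had 0 and 2 counts against 687, 663 and 687. No library of SK-Hep1 reached those of HepG2 for any of these genes. They were named for their large differences and passed the filter through HepG2, so this separation adds nothing. The share over all genes was not computed. CYP27A1 was low but present, at 2.08 ± 0.86 CPM against 205 ± 11 CPM (log2 difference -6.60 ± 0.10, edgeR adjusted p = 3.1e-52). GSTO1 and GSTK1, at 133 ± 0.43 and 47.5 ± 0.75 CPM in SK-Hep1 NC TuD against 170 ± 3.8 and 56.0 ± 0.095 CPM in HepG2 NC TuD, differed least among the called members.

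The regulators of these families were followed as a list of 21 receptors and transcription factors, all tested. In HepG2, 5 were higher with the decoy and none lower, against 10.7% and 8.58% of all genes tested. The median log2 fold change of the list was 0.03, against 0 over all genes. HNF4A, a main hepatocyte factor, averaged 306 ± 6.6 CPM with the decoy and 265 ± 9.2 CPM with the control (log2 fold change 0.20 ± 0.04, edgeR adjusted p = 8.1e-05). NR1I2, which encodes PXR, averaged 34.9 ± 0.83 CPM against 29.1 ± 1.3 CPM (log2 fold change 0.26 ± 0.07, edgeR adjusted p = 0.0068; 0.057 by DESeq2). With limma on the whole deposited matrix neither was called (adjusted p = 0.88 for HNF4A and 0.78 for NR1I2). The others were VDR, CEBPA and the glucocorticoid receptor NR3C1, and the CEBPA call was lost under both limma fits and without miR-17 TuD replicate 2. AHR at -0.04 ± 0.05, NFE2L2, which encodes NRF2, at 0.03 ± 0.04 and NR1I3, which encodes CAR, at -0.22 ± 0.39 did not pass (log2 fold changes). In SK-Hep1 none of the 21 was called, while VDR, at 20.8 ± 1.9 CPM with the decoy and 18.7 ± 0.27 CPM with the control, was above its HepG2 level (log2 difference between the control arms 4.14 ± 0.18).

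Other genes of the same pathways moved both ways in HepG2. Their counts stand against 10.7% of all genes tested called higher there and 8.58% called lower. Of 9 electron donors of P450 enzymes (median log2 fold change -0.05) 2 were higher, FDXR and CYB5R3, and POR, the main donor in the endoplasmic reticulum, did not pass (log2 fold change -0.11 ± 0.04, edgeR adjusted p = 0.064) except without replicate 2 of either arm (adjusted p = 0.018 and 0.024). Of 6 AHR targets outside the families (median 0.22) 2 were higher, ALDH3A1 with 47, 48 and 45 counts against 17, 14 and 21 (log2 fold change 1.34 ± 0.24, edgeR adjusted p = 2.8e-05) and NQO1 (0.13 ± 0.03), which is also an NRF2 target. All 3 decoy libraries lay above the controls for ALDH3A1, which was named by its call, so this separation adds nothing to the call. Of 19 NRF2 targets (median -0.08) 2 were higher and 6 lower, among them AKR1C1, a ketosteroid reductase, at -0.38 ± 0.04. Of 24 other drug enzymes tested (median 0.03) 4 were higher and 5 lower, with CES2, a carboxylesterase, at 0.36 ± 0.05, and FMO5, MAOA and UGDH, which makes the sugar donor of the UGT enzymes, at -0.58 ± 0.06, -0.43 ± 0.08 and -0.19 ± 0.04. Of 17 transporters tested (median 0) 6 were higher and 1 lower, with the efflux pump ABCC3 at 217 ± 12 CPM against 144 ± 3.3 CPM (log2 fold change 0.59 ± 0.04, edgeR adjusted p = 2.1e-16) and the uptake carrier SLC22A3 at -0.43 ± 0.07. Of 23 steroid and bile acid enzymes outside P450 tested (median -0.02) 1 was higher and 4 lower, with HSD17B11 at -0.35 ± 0.05 and BAAT, which conjugates bile acids, at -0.70 ± 0.18.

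In SK-Hep1, HMOX1, which degrades haem, was called among the NRF2 targets, at 194 ± 13 CPM with the decoy and 151 ± 10 CPM with the control (log2 fold change 0.36 ± 0.06, edgeR adjusted p = 2.2e-05), and SERPINB2 among the AHR targets, at 99.7 ± 8.0 CPM against 78.5 ± 8.2 CPM (0.34 ± 0.07, edgeR adjusted p = 0.0020). The SERPINB2 call was lost under 5 of 19 alternatives: DESeq2, both limma fits (adjusted p up to 0.84) and without replicate 1 of either SK-Hep1 arm. The HMOX1 call was lost under 1 of 19, limma on the SK-Hep1 libraries alone (adjusted p = 0.13). NQO1 was not called in SK-Hep1 (log2 fold change -1.06, edgeR adjusted p = 0.29). With limma on the whole deposited matrix it was called lower there (-1.02, limma adjusted p = 2.0e-07). Its response minus that of HepG2 was -1.19 (edgeR adjusted p = 0.071) and -1.15 with limma (limma adjusted p = 7.1e-07). No gene of the other 5 pathway lists was called there.

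Hepatocyte markers moved with the decoy in HepG2: of 12, 8 were lower and 2 higher, with log2 fold changes of -0.54 ± 0.03 for AFP and -0.51 ± 0.04 for ALB. The median was -0.28. Over all genes tested in HepG2, 10.7% were called higher and 8.58% lower. In SK-Hep1, 4 were lower and 3 higher at trace counts, with a median of -1.15. Over all genes tested in SK-Hep1, 0.667% were called higher and 0.202% lower. Blood markers in HepG2, which are almost all LYZ, summed to 2200 to 2342 CPM with the decoy and 2519 to 2603 CPM with the control, and of mesenchymal markers 2 of 7 tested, COL1A1 and ACTA2, were higher. In SK-Hep1 LYZ was lower, at 1 and 0 counts against 13 and 35, and no mesenchymal or endothelial marker was called, while mesenchymal sums were 15946 to 16412 CPM with the decoy and 14749 to 15088 CPM with the control. In HepG2 the endothelial list gave 2 higher (ENG, ESAM) and 1 lower (CDH5) of 6 tested. The part of these shifts in the enzyme values was not tested.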

How the data were processed

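The submitters' processing notes name STAR, HTSeq 0.5.4p5, limma and the hg19 build. The series description names other tools and a mouse genome, and the symbols are human. The authors deposited a file of raw counts for every library, and a log2 matrix over all of them. That log2 matrix, as deposited, held 13658 genes and equalled log2 of count plus 0.5 less 1 constant per library. Summary lines of the count files (11.6% to 14.1% of reads outside genes, 0.584% to 0.619% ambiguous, 4.47% to 5.04% not unique, 2.43% to 2.87% not aligned) were left out.

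Counts were tested with edgeR 4.0.16 (R 4.3.3): filterByExpr, TMM, 4 group means over 10 libraries in 1 robust quasi-likelihood fit, two-sided. SE is the fold change over the root of F. The procedure was tested on simulated data. Alternatives used limma 3.58.1, DESeq2 1.42.0, other filters and scaling, a replicate block and each library left out. Levels are TMM-scaled CPM, mean ± SD.

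Named genes are all called members, the 10 largest line differences per direction, members at 10 CPM or more in a group, a textbook set, and up to 4 called genes per list. Members and lists were chosen with earlier results of these data known. Of the symbols, 101 of 103 matched GENCODE 29.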

Additional observations from a re-analysis of the deposited data

Results flagged for a closer look

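The responses to the decoy (miR-17 TuD minus NC TuD, log2) differed between SK-Hep1 and HepG2 for 18 of the named genes. These calls are by edgeR's test of the difference, at an adjusted p below 0.05. Not called were 65 other named genes, and over all genes tested 3.75% were called. Named genes were picked in part by their calls on these data, so the 18 do not measure an excess. Values are the SK-Hep1 response minus the HepG2 response. Among the enzyme families it was CYP11A1, at -2.32 ± 0.69 (SE). Among regulators it was VDR at -1.16 ± 0.29 and NR3C1 at -0.25 ± 0.08. The NR3C1 difference was lost under 11 of 17 alternatives (adjusted p up to 0.36) and that of VDR under 3 of 17 (up to 0.10). That of CYP11A1 was lost under 10 of 15. The transporter ABCC3 differed by -1.02 ± 0.27, the esterase CES2 by -0.43 ± 0.08 and the electron donor FDXR by -0.35 ± 0.08, and the NRF2 targets FTL and HMOX1 by 0.25 ± 0.05 and 0.32 ± 0.08. Of 17 alternatives, ABCC3 and FDXR were lost under 2 each and HMOX1 under 4, while CES2 and FTL held.

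Marker genes of other cell types and of hepatocytes were also among them. ENG differed by -0.62 ± 0.18, ACTA2 by -0.40 ± 0.11 and COL1A1 by -0.69 ± 0.14. ENG was lost under 9 of 17 alternatives and ACTA2 under 8, while COL1A1 held. ALB differed by -4.74 ± 0.51, AFP by -2.30 ± 0.28, AHSG by -5.11 ± 0.76 and LYZ by -5.00 ± 0.71. FGA differed by 3.06 ± 0.43, FGB by 3.06 ± 0.60 and FGG by 2.77 ± 0.56. These values are less certain than their SE: ALB was -8.83 without SK-Hep1 miR-17 TuD replicate 2 and -3.82 without replicate 1, and FGA 4.88 without SK-Hep1 NC TuD replicate 2 and 2.32 without replicate 1. Both were lost with limma on the whole matrix. In SK-Hep1 these last 7 genes had few counts: AHSG had 0 and 1 with the decoy against 12 and 38 with the control, and FGA had 27 and 21 against 1 and 7.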

How the results depend on the processing

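No result changed direction past a threshold under any alternative run. In HepG2 the 12 called members became 3 with limma on the whole deposited log2 matrix (CYP11A1, SULT1E1 and UGT2B4) and 12 when limma was given only the HepG2 libraries, an alternative chosen after seeing the data. They numbered 8 with DESeq2, all among the 12 (DESeq2 gave UGT2B4 and CYP3A43 no adjusted p), and 9 with the stricter filter, of which 7 were among the 12 and CYP27A1 and GSTT1 were added. Leaving out each library in turn gave 10 to 14. In SK-Hep1 limma on the whole matrix called 1 member and every other alternative 0, leave-one-out included (0 to 0). The single call of the difference became 0 with the stricter filter and with DESeq2, 2 with limma, and 0 to 1 over the libraries left out (0 for 8 of 10). The 48 members called between the lines became 28 with the stricter filter, which tests fewer genes, and otherwise ranged from 47 to 54. With the replicate block 11 members were called in HepG2, 0 in SK-Hep1, 0 for the difference and 48 between the lines. The numbers are shared in the labels only: same-numbered HepG2 libraries correlated at 0.05, -0.29 and -0.30 and SK-Hep1 at -0.14 over 6587 genes. HepG2 miR-17 TuD replicate 2 correlated with NC TuD replicate 3 at 0.32, and replicate 3 with replicate 2 at 0.30. The other differently numbered HepG2 pairs lay between -0.039 and -0.0023. A block with the HepG2 numbers crossed was not run, so the block fit may not hold the pairing of these libraries. Crossing the SK-Hep1 numbers in the replicate block, chosen after seeing the data, gave 11, 0, 0 and 48. Of 47 named genes called in HepG2, 21 kept the call in every alternative that gave them an adjusted p. So did 0 of 9 in SK-Hep1, 40 of 40 between the lines and 8 of 18 for the difference. Alternatives that did not test a gene were not counted for it: in HepG2, UGT2B4 was held against 17 and SULT1E1 against 19. The cause of these changes in calls was not tested. Depth limits members under 3 counts in a group, where no fold is given.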
